A study of Mus musculus with 16 samples.

Results

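Pdcd1, Tigit and Havcr2 encode the inhibitory receptors PD-1, TIGIT and TIM-3, and the open chromatin around these 3 genes in regulatory T cells (Treg cells) is described here. The members are all regions of the deposited list of open chromatin that overlapped, by 1 base or more, 1 of 3 windows on mouse genome build mm9. The windows are chr1:95890000-95990000 around Pdcd1, chr16:43600000-43710000 around Tigit and chr11:46220000-46340000 around Havcr2. They held 71 of the 75363 regions on the list, 15 at Pdcd1, 38 at Tigit and 18 at Havcr2. The windows are defined by position, near 95.94 Mb for Pdcd1, 43.65 Mb for Tigit and 46.27 Mb for Havcr2, and not by a measured value. They were, however, chosen with earlier results of these data known. These gene positions come with the windows, are given to 10 kb and could not be checked against an mm9 annotation. Distances from them therefore do not place a region relative to the start of a gene.

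The list comes from an ATAC-seq study, an assay in which a transposase inserts sequencing adapters into DNA that is not wrapped in nucleosomes. Cells labelled CD4+CD25+Treg were taken from 8 C57BL/6 mice, and each mouse gave 1 non-lymphoid sample and 1 spleen sample, 16 in all. The groups, of 2 samples each, were epididymal fat (VAT, visceral adipose tissue), skeletal muscle of the hindlimb after injury, colonic lamina propria in the groups titled Nrp1p and Nrp1n, and the spleens matched to each of these (Spl_wVAT, Spl_wMus, Spl_wCol_Nrp1p and Spl_wCol_Nrp1n). No genotype other than the strain, no treatment other than the muscle injury, and no age are given in the labels. The list has 1 row per region, with no value for any sample, so a region open in colon alone cannot be told apart from a region open in every tissue, and tissue was not compared with spleen. For the same reason the sorted cells could not be checked against Treg markers, and sequencing depth is unknown.

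PD-1 is a receptor of the CD28 family that binds PD-L1 and PD-L2 and dampens signalling from the T cell receptor through phosphatases recruited to its tail. TIGIT binds the poliovirus receptor CD155 on antigen-presenting cells and competes there with the activating receptor CD226. TIM-3, the product of Havcr2, is a receptor of the TIM family whose reported ligands include galectin-9. All 3 are known from exhausted T cells, and TIGIT and TIM-3 also mark Treg cells with strong suppressive activity, many of them in tissues.

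The letters below are the 300 bases around the RefSeq start of each gene, 250 before it and 50 after, since the start is where a reader would first look for open chromatin at a gene. They come from the RefSeq promoter table of build GRCm38.p6, another build than that of the region list, and were not placed against the regions. All 3 genes matched that table. Their positions there are chr1:94052504-94052803 (minus strand) for Pdcd1, chr16:43664135-43664434 (minus strand) for Tigit and chr11:46454681-46454980 (plus strand) for Havcr2, and they must not be set beside the mm9 positions used elsewhere. Each is written 5′ to 3′ on the strand of the gene, with matches to the motifs described next in capitals.
Pdcd1: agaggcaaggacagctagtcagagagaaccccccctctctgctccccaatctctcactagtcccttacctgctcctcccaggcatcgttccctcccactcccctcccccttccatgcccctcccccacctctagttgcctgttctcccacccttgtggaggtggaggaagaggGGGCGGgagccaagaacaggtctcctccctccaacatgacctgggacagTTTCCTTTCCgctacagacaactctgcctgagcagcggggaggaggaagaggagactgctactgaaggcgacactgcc
Tigit: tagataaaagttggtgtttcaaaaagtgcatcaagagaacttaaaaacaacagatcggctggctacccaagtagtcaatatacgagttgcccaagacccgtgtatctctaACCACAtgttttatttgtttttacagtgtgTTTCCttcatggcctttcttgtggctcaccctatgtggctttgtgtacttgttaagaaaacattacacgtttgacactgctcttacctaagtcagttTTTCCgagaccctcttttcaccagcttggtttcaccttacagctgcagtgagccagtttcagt
Havcr2: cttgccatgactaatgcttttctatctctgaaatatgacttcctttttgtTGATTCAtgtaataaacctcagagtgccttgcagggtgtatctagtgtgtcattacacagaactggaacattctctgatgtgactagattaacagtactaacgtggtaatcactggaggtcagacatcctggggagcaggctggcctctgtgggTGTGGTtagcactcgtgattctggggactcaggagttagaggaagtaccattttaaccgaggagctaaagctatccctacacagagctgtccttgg

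The motifs searched, on both strands, were TGTGGT (RUNX), TGANTCA (AP-1), TGTTTAC (forkhead), GGAAA (the NFAT core), CAGGAAG (ETS), CTTTGA (TCF), TATAAA (the TATA box) and GGGCGG (GC box). GGAAA and CAGGAAG share the letters GGAA, and TGANTCA reads the same on both strands and was counted once. The Pdcd1 promoter held 1 GC box and 2 adjoining copies of the NFAT core on the opposite strand. The Tigit promoter held 1 RUNX match and 2 NFAT cores, all on the opposite strand. The Havcr2 promoter held 1 RUNX match and 1 match to the AP-1 letters as searched. The latter was TGATTCA, with T at the position where any base was allowed. Of the 32851 promoters in the table, 61.3% held an NFAT core, 35.7% a GC box, 16.8% a RUNX match and 7.81% an AP-1 match. Forkhead (in 3.65% of promoters), ETS (13.3%), TCF (16%) and TATA box letters (13.6%) did not occur in these 3. The promoters also differed in base composition, with 60.7% G and C at Pdcd1, 45.3% at Havcr2 and 41.3% at Tigit, against a median of 52.7% over the table. A match describes these letters and does not show that a factor binds them.

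Tigit had the densest open chromatin of the 3 loci. Its window held 34.5 regions per 100 kb, and the windows of Pdcd1 and Havcr2 held 15.0 each, so that Tigit had 2.30 times the density of either. Among regions of median width or more the ratio of Tigit to Havcr2 was 1.48, and in the 40 kb around the gene positions it was 1.08. The bases inside regions came to 6.72% of the Tigit window (7396 bases), 3.50% of the Havcr2 window (4195 bases) and 3.21% of the Pdcd1 window (3205 bases). Over chromosomes 1 to 19 and X as a whole the list had 2.86 regions per 100 kb and covered 0.577% of the bases. Measured against its own chromosome, each locus was above the mean density, by 12 times for Tigit on chromosome 16, 5.69 times for Pdcd1 on chromosome 1 and 3.28 times for Havcr2 on chromosome 11. The equal densities of Pdcd1 and Havcr2 depended on how regions were counted, since the ratio of Havcr2 to Pdcd1 was 0.655 after regions under 500 bp apart were merged and 1.46 among regions of median width or more. Chromosome 11 as a whole had 4.57 regions per 100 kb and chromosome 1 had 2.64.

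When the chromosomes were divided into consecutive stretches as long as each window, 4 of 23948 stretches of 110 kb (0.0167%) had 38 or more regions, the Tigit count. The highest count in any stretch of that length was 40. For Pdcd1, 1030 of 26344 stretches of 100 kb (3.91%) had 15 or more, and for Havcr2, 754 of 21951 stretches of 120 kb (3.43%) had 18 or more. On the same chromosome, the counts were reached by 0 of 893 stretches for Tigit, by 76 of 1970 (3.86%) for Pdcd1 and by 81 of 1014 (7.99%) for Havcr2. Over all chromosomes the median stretch was empty at each of these lengths. Among stretches with at least 1 region the median was 5 regions, and 0.0358% reached the Tigit count, 8.62% the Pdcd1 count and 7.16% the Havcr2 count. All 3 loci thus lay in the upper part of the list's distribution, with Tigit near its end at the bounds used. The Tigit count depends on those bounds, since the 100 kb centred on its window held 29.0 regions per 100 kb. Among the consecutive stretches of 100 kb the highest count was 37 and the 95th percentile was 13. The shares given here describe the list and are no test, because the windows were placed on known genes.

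**Figure D1:**
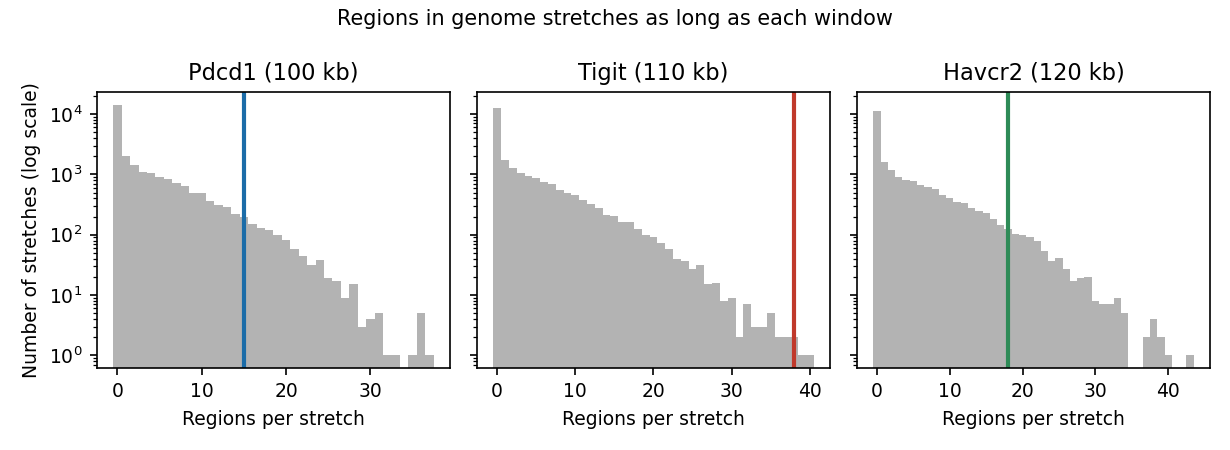
Number of genome stretches (vertical axis, log scale) by the regions they held (horizontal axis), for stretches of 100, 110 and 120 kb, the lengths of the Pdcd1, Tigit and Havcr2 windows. The coloured line marks the window itself, at 15 for Pdcd1, 38 for Tigit and 18 for Havcr2; the grey bars end at 40 for 110 kb.

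The loci were more alike close to the gene positions than over the whole windows, because most of the additional Tigit regions lay farther out. Within 40 kb centred on the named positions, which are given to 10 kb, Tigit had 35.0 regions per 100 kb, Havcr2 had 32.5 and Pdcd1 had 27.5. In that central stretch the ratio of Tigit to Pdcd1 was 1.27. In numbers, 14 regions of Tigit, 13 of Havcr2 and 11 of Pdcd1 had their centre within 20 kb of the position. The remaining 24 regions of Tigit lay on both sides, while Pdcd1 had 4 beyond 20 kb and Havcr2 had 5. RefSeq places Tigit between Zbtb20, a zinc finger repressor gene that overlaps it in the GRCm38.p6 table, and Drd3, which encodes a dopamine receptor. Regions in the Tigit window therefore cannot be assigned to Tigit alone, and none was given a gene name.

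**Figure D2:**
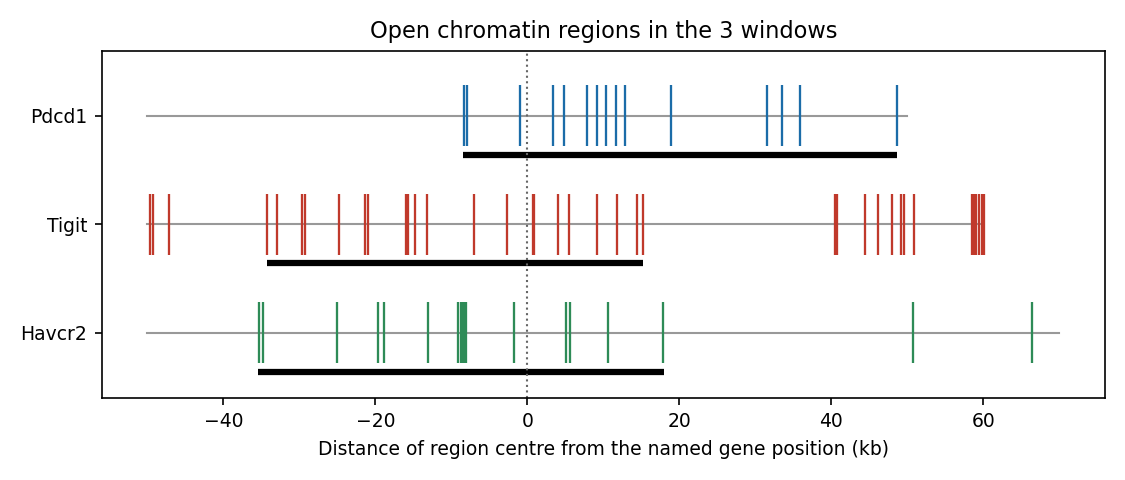
Position of each region's centre (coloured lines, not drawn to width) by its distance in kb from the named gene position (dotted line), for the 3 windows (grey lines). Black bars span the largest cluster linked at 12.5 kb; Tigit has a cluster of 21 regions around the position and 14 more regions at 40.5 kb or farther to the right, and Pdcd1 has no region in the left part of its window.

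At Pdcd1 all 15 regions formed a single island. Linked when the gap was under 12.5 kb, they made 1 cluster from 95931540 to 95988664 on chromosome 1, 57.1 kb long. No region was listed for 209 kb (209311 bp) before it or for 124 kb (123508 bp) after it, so the neighbouring stretches of 100 kb on both sides of the window held 0 regions. Of 1193 clusters of 10 or more regions on the list, 4 (0.335%) had 100 kb or more without a region on both sides, and the cluster at Pdcd1 was among these. Its place there depends on the link distance, since gaps of 12448 and 12477 bp inside the cluster were just under it. The measure of free stretches was chosen after the stretches beside Pdcd1 had been seen. Absence from the list means only that no region was called there, and does not show closed chromatin. Protein-coding neighbours of Pdcd1 in the GRCm38.p6 table are Neu4, a sialidase gene, on the side of lower coordinates and Fam174a on the other.

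Inside the island the regions were unevenly placed. The first 2 regions (95931540 to 95932199) were 230 bp apart, the closest pair of the window. The next 8 lay between 95938818 and 95952848, a stretch of 14.0 kb, at gaps of 853 to 4076 bp. A single region of 166 bp followed at 95958812 to 95958977. After 12448 bp without a region came 3 regions between 95971426 and 95975970, and after a further 12477 bp the last region, of 217 bp, at 95988448 to 95988664. Both of these gaps were just under the link distance, so the number of regions counted into the cluster depends on it, and the largest cluster linked at 5 kb held 8 regions. The island lay mostly on 1 side of the named position, with 3 region centres below it and 12 above. That position is given to 10 kb, so these 2 counts could shift.

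The widest Pdcd1 region measured 372 bp (95938818 to 95939189) and was the nearest to the named position, 1.0 kb from it. The named positions are given to 10 kb, so at each locus the region nearest the gene itself is not known. Of all regions on the list, 98.3% were no wider. The second widest, of 363 bp (95971426 to 95971788), opened the group of 3 at 31.6 kb from the position, and 98.0% of all regions were no wider than it. The other regions nearest the position were 201 bp wide (95943266 to 95943466) and 153 bp wide (95944721 to 95944873). The narrowest, of 128 bp (95973422 to 95973549), lay between the second widest region and the last of its group.

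At Tigit the 38 regions fell into 3 clusters, which ran past the window on both sides. The largest held 21 regions from 43615682 to 43665256 on chromosome 16, over 49.6 kb, and included the named position. Of the clusters of 10 or more on the list, 15.3% had 21 regions or more. To its left, 12664 bp away, a cluster of 7 regions had 3 members in the window, from 43600231 to 43603017. That gap was just over the link distance of 12.5 kb, so the number of clusters depends on it. To its right the longest stretch without a region in the window, of 25.1 kb (43665257 to 43690394), was followed by a cluster of 16 regions, of which 14 lay in the window and the last ended at 43719575. These 14 were a group of 8 between 43690395 and 43700951 and a group of 6 at the end of the window. The last member, at 43709975 to 43710157, crossed the bound of the window, and its centre lay outside.

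Linked at 5 kb, the central Tigit cluster split into 11 regions (43615682 to 43636964) and 10 regions (43642836 to 43665256), separated by 5871 bp. Linked under 25 kb, the largest cluster with a region in the window had 33 regions and reached past the window. The gap of 25138 bp still separated it from the right cluster. The 3 regions nearest the named position were 172 bp wide (43650572 to 43650743), 138 bp wide (43650806 to 43650943) and 211 bp wide (43647172 to 43647382), and the first 2 of these were separated by 62 bp. The widest region of the window, and of all 71 members, measured 394 bp (43664234 to 43664627), and 98.9% of the regions on the list were no wider. It was the next to last region of the central cluster, 14.4 kb from the position. The closest pair of the window, 19 bp apart, was at 43690395 to 43690618 and 43690638 to 43690825, at the start of the right cluster.

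The right end of the Tigit window held a run of short regions. Between 43708447 and 43710474 there were 7 regions, each less than 500 bp from the next, of which 6 overlapped the window. Their gaps were 75 to 242 bp, and 55.1% of the 2028 bp they spanned lay in regions. The narrowest members of the window, 2 regions of 100 bp each (43708709 to 43708808 and 43709735 to 43709834), were in this run. No run on the list held more than 7 regions, and 8 runs had that number. The run lay 59.5 kb from the named position of Tigit, on the Drd3 side if the order of the GRCm38.p6 table is taken.

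At Havcr2, 16 of the 18 regions formed a cluster from 46234537 to 46288046 on chromosome 11, over 53.5 kb, when linked at 12.5 kb. The largest cluster with a region in the window had 6 regions when linked under 5 kb and 45, reaching past the window, when linked under 25 kb. The cluster was bordered by 21.6 kb without a region on its left and by 32.7 kb on its right (46288047 to 46320704), the longest such stretch in the window. The remaining 2 regions, of 227 bp (46320705 to 46320931) and 194 bp (46336314 to 46336507), lay beyond it, 50.8 and 66.4 kb from the named position. Where the stretches beside Pdcd1 held no region, the 120 kb to the left of the Havcr2 window held 25 regions, more than the window itself, and the 120 kb to its right held 6. The adjoining stretches of 110 kb held 9 regions left and 4 right of Tigit. RefSeq lists Med7, a subunit gene of the Mediator complex, and Fam71b on the side of lower coordinates of Havcr2, and Gm12169 and BC053393 on the other. As at Tigit, no region of this window was assigned to a gene.

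The Havcr2 regions were spread in small groups along the cluster. It began with a pair of wide regions, 359 bp (46234537 to 46234895) and 301 bp (46235087 to 46235387), the first of them the widest of the window. A single region (46244781 to 46244989) and a pair (46250335 to 46251154) followed. Next came a group of 6 between 46256749 and 46262059. The region nearest the named position, 1.7 kb from it, was 323 bp wide (46268150 to 46268472), a width that 95.7% of all regions did not exceed, and it had no neighbour within 6090 bp. On the other side of the position were regions of 236 bp (46275001 to 46275236), 262 bp (46275509 to 46275770), 287 bp (46280423 to 46280709) and 246 bp (46287801 to 46288046).

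Within the group of 6 at Havcr2, 5 regions stood less than 500 bp apart, between 46260765 and 46262059, 8.6 kb from the named position. They filled 72.7% of 1295 bp, with gaps of 36 to 200 bp, and held the closest pair of the window, 36 bp apart (46261208 to 46261373 and 46261410 to 46261559). The narrowest region of the window, of 140 bp (46261920 to 46262059), closed this run. Runs of 5 or more were uncommon on the list, with 170 in all and 1.19% of the regions in them. Of the members, 6 of 38 at Tigit, 5 of 18 at Havcr2 and 0 of 15 at Pdcd1 were in such a run. Those at Tigit all belonged to a single run of 7 regions and those at Havcr2 to a single run of 5. The members of a run are therefore not separate occurrences. These runs were described after they had been seen.

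Close neighbours were fewest at Pdcd1, a difference that was not tested. A neighbour less than 500 bp away was found for 2 of 15 regions at Pdcd1 (13.3%), 22 of 38 at Tigit (57.9%) and 11 of 18 at Havcr2 (61.1%), against 38.7% of all regions on the list. The gap to the next region had a median of 1935 bp at Pdcd1, 1444 bp at Tigit and 4652 bp at Havcr2, and 5200.5 bp over the list. Havcr2 therefore had the longest median gap and also a large share of close pairs, 7 of its 17 gaps (41.2%), because its regions stood either in tight groups or several kilobases apart. At Tigit 13 of 37 gaps (35.1%) were under 500 bp, and at Pdcd1 1 of 14 (7.14%). On the whole list it was 22.2%.

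**Figure D3:**
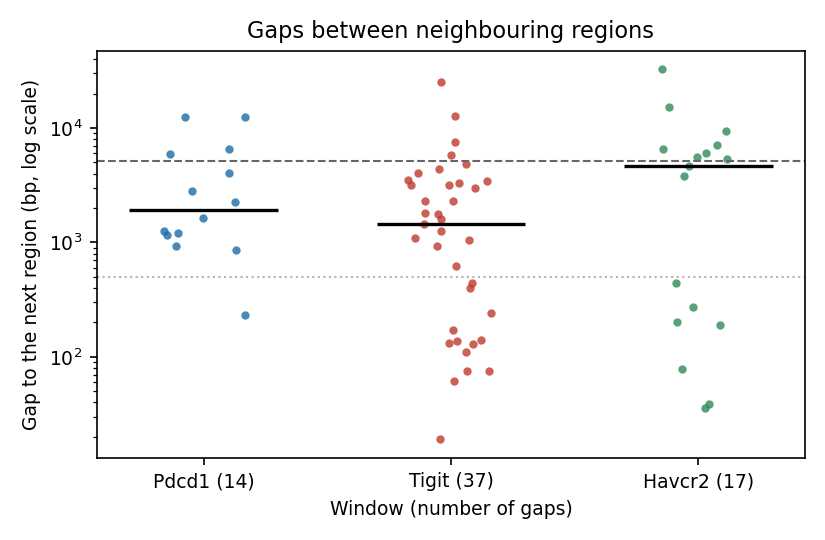
Gap between neighbouring regions (vertical axis, bp, log scale) within each window; each point is 1 gap and black bars are medians (1935 bp at Pdcd1, 1444 bp at Tigit, 4652 bp at Havcr2). The dashed line is the median of the whole list, 5200.5 bp, and the dotted line marks 500 bp, below which Pdcd1 has 1 point, Tigit 13 and Havcr2 7.

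Among close neighbours the distance between centres was taken as well. For neighbours under 500 bp apart, the median distance between centres was 298 bp at Tigit (13 pairs, 217 to 732 bp) and 404.5 bp at Havcr2 (7 pairs, 194 to 632.5 bp), and it was 377.5 bp over 16703 such pairs on the list. The only such pair at Pdcd1 had its centres 445 bp apart. Centres under 300 bp apart made up 7 of the 13 Tigit pairs, 3 of the 7 Havcr2 pairs and 30.7% of the pairs on the list. All 3 such pairs at Havcr2 lay in its single run of 5 regions, and some of those at Tigit in its run. They are therefore not separate occurrences. With 13 and 7 pairs these medians are imprecise.

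Linked at 12.5 kb, most regions of the 3 loci were in large clusters. All 15 regions at Pdcd1, 35 of 38 at Tigit (92.1%) and 16 of 18 at Havcr2 (88.9%) were in clusters of 10 or more regions, compared with 24.2% of the regions on the list. Because each cluster contributes all its regions together, these are in effect 4 clusters, of 15 regions at Pdcd1, 21 and 16 at Tigit and 16 at Havcr2, where the median cluster of 10 or more on the list had 13. This depends on the link distance. Linked under 5 kb, 0 regions at Pdcd1 and at Havcr2, 21 of 38 at Tigit (55.3%) and 2.33% of the list were in clusters of 10 or more, and the largest clusters had 8 regions at Pdcd1, 11 at Tigit and 6 at Havcr2. Linked under 25 kb, 15 of 15 at Pdcd1, 38 of 38 at Tigit, 16 of 18 at Havcr2 and 52.9% of the list were. The largest clusters then had 15, 33 and 45 regions, those at Tigit and Havcr2 reaching past the window.

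Of the 3 windows, Havcr2 had the widest regions by median. Their median width was 235.5 bp (quartiles 194.5 and 258 bp, range 140 to 359 bp, n = 18 regions), against 193 bp at Pdcd1 (171 and 233 bp, 128 to 372 bp, n = 15) and 189.5 bp at Tigit (162 and 239.75 bp, 100 to 394 bp, n = 38). The whole list had a median of 191 bp with quartiles of 165 and 227 bp. Without the over-represented widths described below, the medians were 239 bp at Havcr2, 194 bp at Pdcd1 and 211 bp at Tigit. After regions under 500 bp apart were merged they were 287, 193.5 and 251 bp. The order of Pdcd1 and Tigit thus depended on the setting. Of the Havcr2 regions, 11 of 18 (61.1%) were at or above the upper quartile of the list, where 25.2% of all regions lie, and so were 4 of 15 at Pdcd1 (26.7%) and 12 of 38 at Tigit (31.6%). The 95% intervals of the medians from binomial ranks, which take regions as independent draws and say nothing of the spread between mice, were 194 to 262 bp at Havcr2, 166 to 249 bp at Pdcd1 and 172 to 224 bp at Tigit. Members of a run are not separate occurrences, so these intervals cannot decide whether the medians differ, and the difference was not tested. What sets the width of a region is not given in the sources used here.

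**Figure D4:**
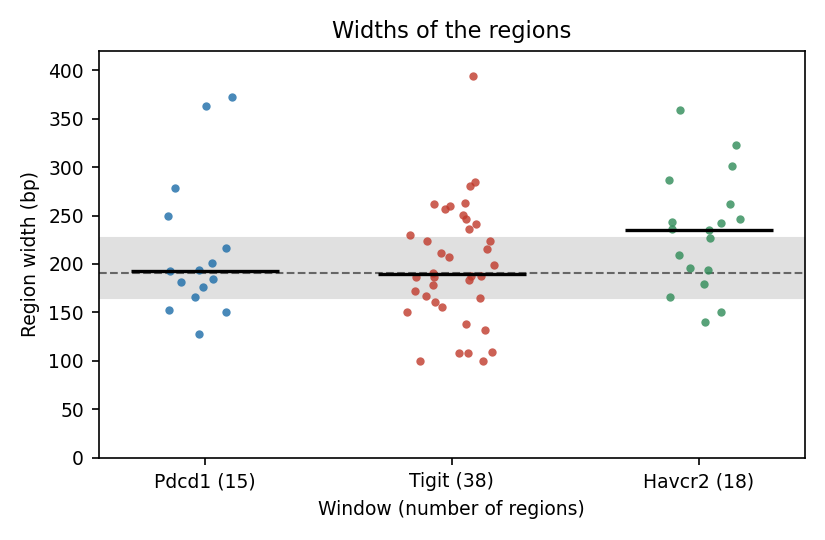
Width of each region (points, vertical axis, bp) in the 3 windows; black bars are medians (193 bp at Pdcd1, 189.5 bp at Tigit, 235.5 bp at Havcr2). The grey band spans the quartiles of the whole list, 165 to 227 bp, and the dashed line its median, 191 bp; the Havcr2 points lie mostly above the band.

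Regions of the 12 exact widths that were over-represented on the list, from 94 to 150 bp, were also present at these loci. There were 7 among the 38 Tigit regions (18.4%), 2 of 15 at Pdcd1 (13.3%) and 2 of 18 at Havcr2 (11.1%), and 14.2% of all regions had such a width. Both such regions at Havcr2 (150 and 140 bp) and 2 of those at Tigit (100 bp each) stood in the runs of close neighbours. At Pdcd1 they were the regions of 150 bp (95951653 to 95951802) and 128 bp. With 2 to 7 such regions per window, these shares are not distinguished from that of the list.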

How the data were processed

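The only file analysed was the list of open chromatin regions that the authors deposited for the whole series, with chromosome, start and end per region, per the file header, and no score, count or signal. Build mm9 and the tools HOMER 4.6, Picard 1.130, SAMtools 1.3, Bowtie2 2.2.4 and cutadapt 1.8.3 are named, per the submitters' processing notes, without their roles. How regions were called, filtered or combined over samples is not given in the sources used here, and decides where a region starts, ends or is split.

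Positions are 1-based, with the start of the file raised by 1, and width is end minus start in the file. Regions were counted in the 3 windows with Python 3.11.15 and pandas 2.3.3. Density was per 100 kb, clusters linked gaps under 12.5 kb, and runs gaps under 500 bp. A width was called over-represented if its count was over 5 times the median count of the widths within 8 bp, that median being taken as at least 10. The functions were tested on simulated data with planted regions.

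No test was run, because no value per sample was used and regions are not replicates. Planned comparisons of tissue with spleen, the count of other pathway genes and the check of markers were not run, since no value per sample and no mm9 annotation was used. Named regions are the widest, the narrowest, the 3 nearest the gene position, the closest pair, the longest stretch without regions, the first and last regions and the largest cluster. Windows, lists and measures were chosen with earlier results of these data known. Runs, stretches beside clusters, distances between centres and cluster membership at other link distances were added after seeing the data.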

Additional observations from a re-analysis of the deposited data

How the results depend on the processing

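No paired analysis was possible because each region has only a position and no sample's value, so leaving out single replicates was not run either. Of 72 alternative values, 52 stayed within 1.5 times the reported value (medians: within their interval, a descriptive limit), 20 moved and 0 reversed. Only the 24 ratios of density between windows were checked for a reversed order. The order of the Pdcd1 and Tigit median widths was not among these and changed with the setting. The ratio of Havcr2 to Pdcd1 started at 1.00, with no order to reverse, and its alternatives ran from 0.655 to 1.46. The cause of a move was not tested beyond the construction of each setting. Merging regions under 500 bp apart gave 25 regions at Tigit and 11 at Havcr2, medians of 251 and 287 bp there, and a ratio of Havcr2 to Pdcd1 density of 0.655, where it was 1.00. With only regions at or above the median width, there were 8 (2067 bases) at Pdcd1 and 19 (4676 bases) at Tigit, and a Tigit to Havcr2 ratio of 1.48. In 40 kb around the positions the density was 27.5 at Pdcd1 and 32.5 at Havcr2, and the ratios of Tigit to Pdcd1 and Havcr2 were 1.27 and 1.08. Linked under 5 kb, the largest clusters had 8 regions (Pdcd1), 11 (Tigit) and 6 (Havcr2). Linked under 25 kb, they had 33 (Tigit) and 45 (Havcr2), both reaching past the window. At Pdcd1, 3 pairs were under 1000 bp apart. Tigit had the highest density under all 8 alternatives run. Shifting the stretches along the chromosome, chosen after seeing the data, left their shares within 1.5 times. Unknown depth limits what the list shows.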
